A study of Rattus norvegicus with 8 samples.

Results

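A group of 10 neuropeptide genes of the lateral hypothalamus and neighbouring nuclei was measured in hypothalamic blocks of rats given retinoic acid (RA) or vehicle. The genes are *Hcrt*, *Pmch*, *Gal*, *Vip*, *Grp*, *Tac1*, *Penk*, *Adcyap1*, *Nts* and *Cck*, and all 10 had a named probe among the 15159 named genes. They were followed on every array because some of these peptides are made mainly in certain nuclei, so that their ratios bear on how alike the dissected blocks were. Male F344N rats kept in short days (SD) received all-trans RA, at 1e-05 M according to the labels, or vehicle in the third ventricle, and blocks that included the arcuate nuclei were frozen the day after. The methods give another RA concentration than the labels and name DMSO in saline as the vehicle, where the labels name saline. The labels do not give the number of rats. Each of 8 two-colour Agilent arrays, all on 1 slide, compared RNA from RA-injected with RNA from vehicle-injected rats. RA was in Cy5 on arrays 1, 3, 6 and 8 and in Cy3 on arrays 2, 4, 5 and 7, and the slide held arrays 1 to 4 in its first row and the rest in its second.

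Neuropeptides are cut from larger precursor proteins, packed into dense-core vesicles and released to act on G-protein coupled receptors. Orexin (from *Hcrt*) and melanin-concentrating hormone (from *Pmch*) are made mainly by neurons of the lateral hypothalamus, where they act on arousal, feeding and sleep. Vasoactive intestinal peptide (*Vip*) and gastrin-releasing peptide (*Grp*) mark the light-receiving part of the suprachiasmatic nucleus, the circadian clock, and PACAP (*Adcyap1*) is abundant in the ventromedial nucleus, whereas galanin (*Gal*), tachykinins (*Tac1*), enkephalins (*Penk*), neurotensin (*Nts*) and cholecystokinin (*Cck*) are made in many nuclei.

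The arrays carried 30367 distinct probes, of which 57.4% to 74.6% per array were marked by the image software as well above background for RA and 61.2% to 74.5% for vehicle. Values below are log2 ratios of RA over vehicle after background correction and loess normalisation, positive where RA was higher. Each p comes from limma, a linear model that pools the spread across probes, fitted to 4 pairs of arrays of opposite dye order, and is the largest over all possible pairings. The probes of the 10 genes were well above background on 8 of 8 arrays in both channels. At an unadjusted p under 0.01, the threshold of the methods, limma called 534 named genes higher and 120 lower after RA, and after adjustment 0 probes of limma stayed under 0.05 (3292 did unadjusted). Genes of reactive astrocytes (9 of 11 higher, led by *Cp* at a log2 fold change of 2.60, *Hspb1* at 2.21 and *Timp1* at 2.19) and of microglia (5 of 10 higher, 1 lower) changed in these blocks, whose bulk RNA cannot tell fewer cells of a type from less RNA per cell. Which arrays were hybridised with the same RNA is not given in the sources used here. When pairs of arrays were fitted as a random block, over all 24 ways of pairing the dye orders, the correlation within pairs ranged from -0.19 to 0.33 and was highest with arrays 1 and 2, 3 and 4, 6 and 7, and 8 and 5 as pairs. If arrays 8 and 5 hold the same RNA, they stand for 1 rat of each group. Because these arrays stand apart for several of the 10 genes, values are also given without them.

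No gene of the 10 passed the test over all arrays. With limma, 0 of 10 had an unadjusted p under 0.01 (0 under 0.05 as well), beside 4.31% of all named genes, and 0 had an adjusted p under 0.05, beside 0% of all named genes. The median log2 fold change was -0.05, with 4 genes above 0 and 6 below, beside -0.0046 for all named genes. The mean over arrays covered large and opposite differences between arrays. On arrays 8 and 5, singled out after their values were seen, *Hcrt*, *Pmch* and *Adcyap1* were lower in RA than in vehicle tissue by more than 0.5 on the log2 scale, and *Vip* and *Cck* were higher by as much. These are 3 of 10 genes beside 0.567% of all named genes in the lower direction, and 2 of 10 beside 2.98% in the higher direction.

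**Figure D1:**
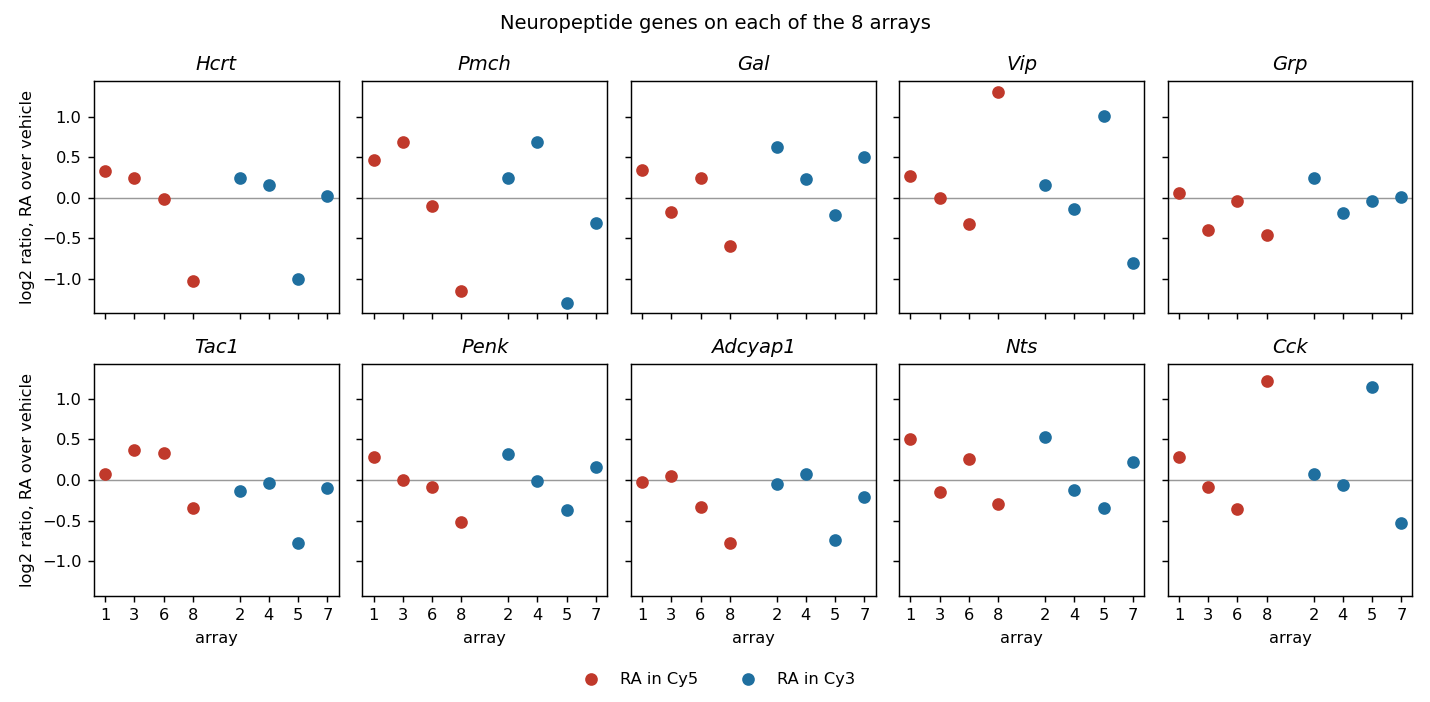
The log2 ratio of RA over vehicle (vertical axis, 0 means no difference) of each neuropeptide gene on each of the 8 arrays (horizontal axis), with RA in Cy5 in red and RA in Cy3 in blue. Array 8 and array 5, which are of opposite dye order, lie far below 0 for *Hcrt* and *Pmch* and far above 0 for *Vip* and *Cck*.

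*Hcrt*, the orexin precursor, is represented by probe A_42_P500675. With RA in Cy5 its log2 ratio was 0.33 on array 1, 0.24 on array 3, -0.017 on array 6 and -1.03 on array 8. With RA in Cy3 it was 0.24 on array 2, 0.16 on array 4, -1.01 on array 5 and 0.014 on array 7. Of the arrays, 6 thus lay at or somewhat above 0 and the other two, 1 of each dye order, lay 2.03-fold below it on average, with no value in between. The log2 fold change over all arrays was -0.13 with a standard error of 0.20 (limma, unadjusted p = 0.523, adjusted p = 0.883). Without arrays 8 and 5 it was 0.16 (unadjusted p = 0.0633), so that these arrays set its direction.

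*Pmch*, the precursor of melanin-concentrating hormone, had the same outline with wider values. With RA in Cy5 the log2 ratio was 0.47 on array 1, 0.69 on array 3, -0.11 on array 6 and -1.16 on array 8. With RA in Cy3 it was 0.24 on array 2, 0.69 on array 4, -1.30 on array 5 and -0.31 on array 7. All arrays of the first slide row were above 0 and all of the second row below 0, and arrays 8 and 5 were 2.34-fold lower on average. Of all named genes, 0.0198% had a lower mean on these arrays than *Pmch*, and 0.0858% a lower mean than *Hcrt*. Over all arrays the log2 fold change of *Pmch* was -0.10 with a standard error of 0.27 (limma, unadjusted p = 0.725). Without arrays 8 and 5 it was 0.28 (unadjusted p = 0.116).

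The slide row bears on both genes of the lateral hypothalamus. On the first row alone, *Hcrt* averaged 0.24 and *Pmch* 0.52, with unadjusted p values of 0.00546 and 0.000147 in limma, and both were higher on 4 of 4 arrays. On the second row, *Hcrt* averaged -0.51 (unadjusted p = 0.0553) and *Pmch* -0.72 (unadjusted p = 0.0151). Each of these fits rests on 2 pair means, which may hold repeat hybridisations of the same RNA, with a spread pooled across probes. Each row holds other arrays and, if pairs share RNA, other rats, so row and rat cannot be told apart.

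*Adcyap1*, which encodes PACAP, was lower on 6 of 8 arrays and came nearest to the threshold. Its log2 ratio was -0.029 on array 1, 0.050 on array 3, -0.34 on array 6 and -0.78 on array 8 with RA in Cy5. With RA in Cy3 it was -0.048 on array 2, 0.079 on array 4, -0.75 on array 5 and -0.21 on array 7. The first slide row showed next to no difference, and all arrays of the second row were lower. Over all arrays the log2 fold change was -0.25 with a standard error of 0.13 (limma, unadjusted p = 0.0836, adjusted p = 0.534). Its p moved with the pairing of the arrays and was under 0.01 in 7 of 24 pairings, with a lowest value of 0.000843. Without arrays 8 and 5 the log2 fold change was -0.08 (unadjusted p = 0.325).

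*Vip*, a peptide of the circadian clock, went the opposite way on arrays 8 and 5. With RA in Cy5 its log2 ratio was 0.27 on array 1, -0.0053 on array 3, -0.32 on array 6 and 1.31 on array 8. With RA in Cy3 it was 0.16 on array 2, -0.14 on array 4, 1.01 on array 5 and -0.81 on array 7. Arrays 8 and 5 were 2.23-fold above vehicle on average and array 7 was the lowest. Other markers of the suprachiasmatic nucleus did not rise with it as a group. *Grp* was at -0.46 on array 8 and at -0.04 on array 5. Of 6 further suprachiasmatic genes, 4 were below 0 and 2 above 0 on both arrays, with medians of -0.06 and -0.12. Among them, *Prok2* (above 0) and *Six6* (below 0) were each well above background on only 1 array in RA and 0 in vehicle. *Avp* (below 0) is on the paraventricular and supraoptic list as well. The log2 fold change of *Vip* over all arrays was 0.18 with a standard error of 0.24 (limma, unadjusted p = 0.461). Without arrays 8 and 5 it was -0.14 (unadjusted p = 0.337).

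*Cck*, the cholecystokinin precursor, followed *Vip* closely, with a Pearson correlation of 0.98 over the 8 arrays, which may share RNA, so that this is a description only. With RA in Cy5 its log2 ratio was 0.29 on array 1, -0.09 on array 3, -0.36 on array 6 and 1.23 on array 8. With RA in Cy3 it was 0.07 on array 2, -0.07 on array 4, 1.15 on array 5 and -0.53 on array 7. Arrays 8 and 5 were 2.28-fold higher on average and did not overlap with the others. The log2 fold change over all arrays was 0.21 with a standard error of 0.23 (limma, unadjusted p = 0.383), and it was -0.11 without arrays 8 and 5 (unadjusted p = 0.351).

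The other 5 genes are given by their ranges. The log2 ratio of *Gal*, which encodes galanin, ranged from -0.60 on array 8 to 0.62 on array 2, and its log2 fold change was 0.12 with a standard error of 0.13 (limma, unadjusted p = 0.412). It was above 0 on 5 of 8 arrays, and without arrays 8 and 5 it was 0.29 (unadjusted p = 0.0176). *Nts*, the neurotensin precursor, ranged from -0.34 on array 5 to 0.53 on array 2, with arrays 1 and 2 both at or above 0.50. *Tac1*, which gives substance P and neurokinin A, ranged from -0.78 on array 5 to 0.38 on array 3. *Penk*, the enkephalin precursor, ranged from -0.51 on array 8 to 0.32 on array 2, and *Grp* from -0.46 on array 8 to 0.24 on array 2. The log2 fold changes of these genes were 0.08 for *Nts*, -0.08 for *Tac1*, -0.03 for *Penk* and -0.10 for *Grp*, with standard errors of 0.13, 0.12, 0.11 and 0.08. The unadjusted p values in limma were 0.567, 0.533, 0.804 and 0.225. *Gal* and *Tac1* each had another probe, with log2 fold changes of 0.16 and -0.08.

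**Figure D2:**
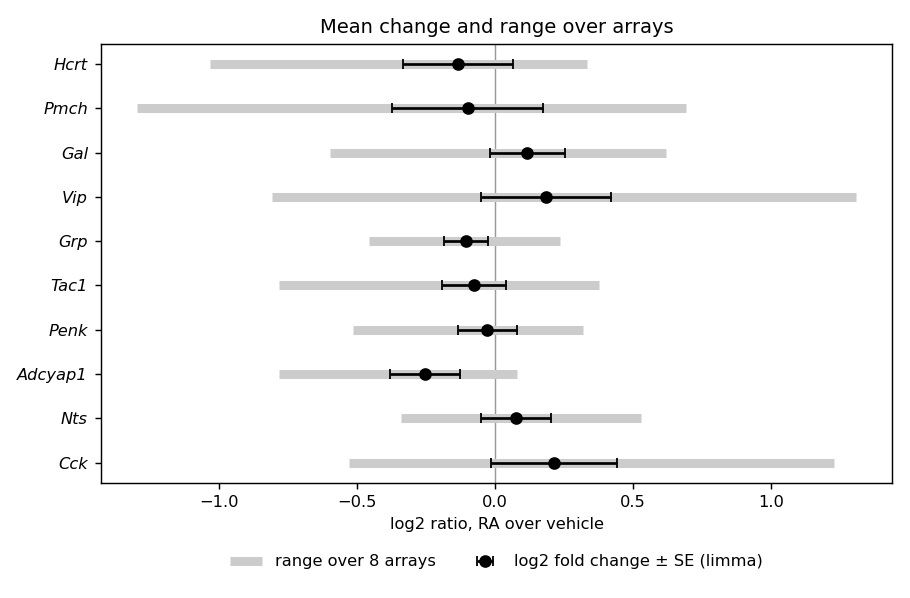
The log2 fold change of each neuropeptide gene over the 8 arrays (points) with its standard error from limma (black bars) and the range of the 8 single-array log2 ratios (grey). All ranges span 0, and those of *Hcrt*, *Pmch*, *Vip* and *Cck* are the widest.

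Arrays 8 and 5 are of opposite dye order and gave nearly equal log2 ratios for *Hcrt* and for *Adcyap1*. With RA in Cy5 the mean of *Hcrt* was -0.12 and with RA in Cy3 it was -0.15, and for *Adcyap1* -0.27 and -0.23. *Gal* and *Tac1* had means of opposite sign in the dye orders, at -0.05 and 0.28 for *Gal* and 0.11 and -0.26 for *Tac1*. By the spread of the 8 log2 ratios, *Pmch* exceeded 99.5% of the 10043 named genes that were well above background, *Vip* 99.2%, *Cck* 98.9% and *Hcrt* 98.3%. The lowest such share was that of *Grp*, at 83.5%. On arrays 5 and 8, 6 and 7 of the 10 genes differed from 0 by more than 0.5, where 4.66% and 5.87% of all named genes did, and on every other array 0 to 2 of them did.

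The separate channels of each array show on which side these differences lay. After scaling of the single channels across arrays, the log2 level of *Hcrt* in RA tissue lay between 10.7 and 11.1 on all 8 arrays. In vehicle tissue it reached 11.9 on array 8 and 12.1 on array 5, against 10.6 to 10.9 on the other 6. The vehicle channel of arrays 8 and 5 thus stood above all others, while the RA channel did not stand apart. For *Pmch*, the vehicle level was 16.9 on both arrays and between 15.6 and 16.1 elsewhere, and the RA level, at 15.8 and 15.6, was also the lowest of the 8. *Vip* in vehicle tissue was 9.56 on array 8 and 9.71 on array 5, against 10.68 to 11.03 on the other 6, and its RA levels of 10.9 and 10.7 were within the range of 10.2 to 11.2 of the others. *Cck* in vehicle tissue was 14.1 and 14.4, against 14.9 to 15.7, with RA levels of 15.3 and 15.5 inside the range of 14.8 to 15.8. In all 4 genes the vehicle levels of arrays 8 and 5 lay outside the range of the other 6 arrays.

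**Figure D3:**
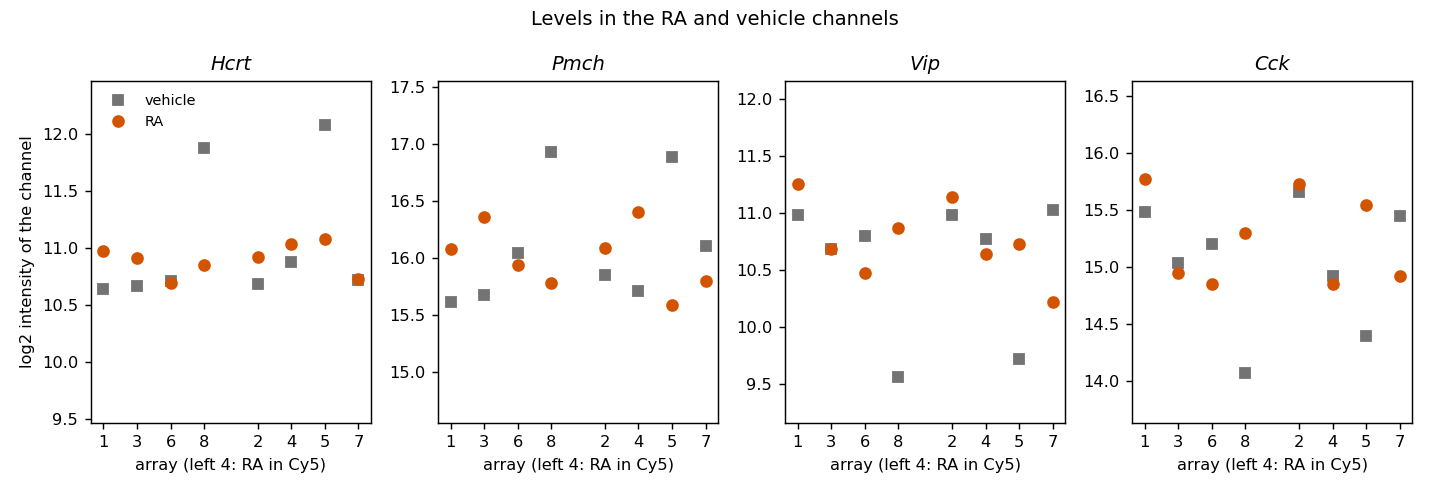
The log2 intensity of *Hcrt*, *Pmch*, *Vip* and *Cck* in the vehicle channel (grey squares) and the RA channel (orange circles) of each array, after scaling between arrays, with the 4 arrays that have RA in Cy5 on the left. The vehicle levels of arrays 8 and 5 are high for *Hcrt* and *Pmch* and low for *Vip* and *Cck*, and every panel spans the same number of log2 units.

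Set against the mean of the other 3 arrays of its dye order, array 8 was 1.21 higher in the vehicle channel for *Hcrt* and deviated by -0.0093 in the RA channel. For *Vip* the vehicle channel was 1.26 lower and the RA channel 0.07 higher. In the vehicle channel of array 8, 6 of the 10 genes deviated by more than 0.5, where 2.76% of the named genes well above background did, and in its RA channel 0 did, where 3.20% did. On array 5 the counts were 5 of 10 in the vehicle channel, beside 19.7%, and 3 of 10 in the RA channel, beside 19.8%. The deviation was larger in the vehicle than in the RA channel for 8 of the 10 genes on array 8, beside 54.7% of those named genes, and for 7 of the 10 on array 5, beside 50.7%. *Penk* was an exception, with -0.39 in the RA and 0.19 in the vehicle channel. Array 5 gave vehicle deviations of 1.32 for *Hcrt*, 0.99 for *Pmch*, -1.21 for *Vip* and -0.94 for *Cck*, but it was the noisier array, with an SD of 0.52 over named genes against 0.21 on array 8. Without scaling between arrays, all genes on array 5 were shifted by a median of -0.50 in the RA and -0.52 in the vehicle channel. *Hcrt* then read -0.56 and 0.59 there, and *Vip* -0.63 and -1.91, so that the vehicle channel still moved further from the median shift in both genes. Levels in single channels are less exact than the ratio within an array, and no test was applied to them.

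RefSeq (GRCr8) gave the region from 250 bases before to 50 after the start site for 7 of the 10 genes, all but *Pmch*, *Penk* and *Cck*. The 250 bases before the start site are shown for *Hcrt* (chr10:86191525-86191774, minus strand) and *Adcyap1* (chr9:120556474-120556723, minus strand), which were low on arrays 8 and 5, and for *Vip* (chr1:44470230-44470479, plus strand), which was high there. They are written from 5′ to 3′, and capitals mark TATAAA or TGACGT.
Hcrt: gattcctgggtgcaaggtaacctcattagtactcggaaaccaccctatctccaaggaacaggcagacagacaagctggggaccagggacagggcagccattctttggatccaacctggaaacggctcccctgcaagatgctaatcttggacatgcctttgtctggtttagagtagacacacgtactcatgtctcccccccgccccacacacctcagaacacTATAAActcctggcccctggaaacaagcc
Adcyap1: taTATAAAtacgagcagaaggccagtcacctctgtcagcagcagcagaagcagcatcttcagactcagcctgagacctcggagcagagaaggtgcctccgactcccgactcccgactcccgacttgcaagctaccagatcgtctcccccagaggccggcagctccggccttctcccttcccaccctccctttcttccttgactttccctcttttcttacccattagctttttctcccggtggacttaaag
Vip: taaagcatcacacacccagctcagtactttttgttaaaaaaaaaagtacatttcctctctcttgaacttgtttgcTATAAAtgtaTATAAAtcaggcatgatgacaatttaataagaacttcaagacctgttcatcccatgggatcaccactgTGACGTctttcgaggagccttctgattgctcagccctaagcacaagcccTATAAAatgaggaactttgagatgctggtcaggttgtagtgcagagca

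A set of 3 motifs was searched on both strands. AGGTCA, a form of the half-site bound by retinoid receptors, was in 0 of the 7 regions, beside 16.2% of all 33469 promoters searched. Other forms of this half-site were not searched, so the count does not show that the regions lack a retinoid half-site. TATAAA, the letters of the TATA box, was in 5 of the 7 at any position, beside 14.2% of all promoters. In *Hcrt* it began at position -29 relative to the start site, and in *Adcyap1* at -248. In *Vip* it was found at 3 places, of which the nearest began at -48. TGACGT, part of the cyclic AMP response element, was in *Vip*, where it began at -97, and in *Grp*, beside 7.94% of all promoters. A match of letters describes the sequence only.

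Receptors and processing genes of these peptides were read from lists. Of 20 receptors for the 10 peptides, 0 passed an unadjusted p of 0.01 in limma (2 under 0.05), beside 4.31% of all named genes under 0.01. Their median log2 fold change was -0.09, with 18 below 0 where 7936 of all 15159 named genes were, and only 1 of them was below -0.5 on both array 8 and array 5. This was the orexin receptor gene *Hcrtr1* (-0.55 and -0.53), named after its values were seen. The log2 fold change was -0.21 (SE 0.13) for *Tacr3*, the neurokinin B receptor, and -0.20 (SE 0.091) for *Cckbr*, a cholecystokinin receptor. Of 16 genes for processing and storage of peptides, 1 fell, the granule protein gene *Chga*, by 0.17 on the log2 scale (limma, unadjusted p = 0.00993, adjusted p = 0.306), and 13 were below 0.

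Other genes of the hypothalamus were read from marker lists, and none of their members had an adjusted p under 0.05 (0 in limma). An unadjusted p under 0.01 was reached by 4.31% of all named genes. Among 9 further genes of the lateral hypothalamus and 8 peptides of the arcuate nucleus, which share *Cartpt*, the 1 gene that fell was *Cartpt*, a feeding-related peptide gene. Its log2 ratio was 1.2e-04 on array 4 and lay between -0.67 and -0.15 on the other 7 arrays, with a mean of -0.42 and a standard error of 0.090 (limma, unadjusted p = 0.00198, adjusted p = 0.254). *Lhx1*, a regulator of the suprachiasmatic nucleus, fell by 0.23 (unadjusted p = 0.00634), and *Foxa2*, on the mammillary list, by 0.47 (unadjusted p = 0.00662), although its RA channel was well above background on only 5 arrays. *Sox14*, on the ventromedial and arcuate lists, fell by 0.16 but was well above background on 3 arrays. No gene passed among 7 hypophysiotropic and neurohypophyseal genes, where *Avp* (vasopressin) had a log2 fold change of 0.65 and *Th* (tyrosine hydroxylase) of -0.49. *Avp* was between 0.90 and 1.36 on arrays 1 to 4 and at -0.0061 and -0.13 on arrays 8 and 5, while *Crh*, which encodes corticotropin-releasing hormone, was at 0.93 and 0.84.

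Arrays 8 and 5 also stood apart in the marker lists of several nuclei. *Agrp*, an appetite-stimulating peptide of the arcuate nucleus, was at -1.04 on array 8 and at -1.11 on array 5 in log2 ratio, and lay from -0.09 to 0.05 elsewhere. *Npy*, made by the same neurons, had -0.26 and -0.58. The median of the 8 arcuate peptides was -0.45 on array 8 and -0.59 on array 5, against -0.06 to 0.03 on all others. Not every list stood apart. A second list of 8 arcuate genes, of which only 2 were well above background on all 8 arrays, had medians of -0.06 and -0.18. On the other arrays its median was between -0.16 and 0.03. The 7 paraventricular and supraoptic genes had medians of -0.10 on array 8 and -0.04 on array 5. All 8 ventromedial genes were below 0 on both arrays, with medians of -0.21 and -0.39, and 8 of the 9 further genes of the lateral hypothalamus were, with medians of -0.37 and -0.39. The thalamic list had 7 of 8 genes above 0 on both arrays, with medians of 0.60 and 0.50. The pituitary list of 8 genes, which includes *Pomc*, also stood apart. Its medians were -0.44 on array 8 and -0.34 on array 5, against -0.06 to 0.13 on all others, with 3 genes below -0.5 on both. The oligodendrocyte and choroid plexus lists were less particular to these arrays. All 10 oligodendrocyte genes were below 0 on both, with medians of -0.38 on array 8 and -0.35 on array 5. That list's median was also below 0 on all other arrays, at -0.28 on array 1 and -0.20 on array 6. Of 10 choroid plexus genes, 9 were above 0 on both arrays, with medians of 0.57 and 0.30. That list's median was 0.38 on array 1, 0.27 on array 2, 0.22 on array 3 and 0.05 on array 4. Of the 15159 named genes, 4231 were below 0 and 4425 above 0 on both array 8 and array 5. *Prkcd*, a protein kinase C gene of the thalamic list, had log2 ratios of 1.48 and 1.39 on arrays 8 and 5, and its vehicle channel deviated by -1.23 and -1.75. General neuronal genes had medians of -0.03 and -0.05 there.

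**Figure D4:**
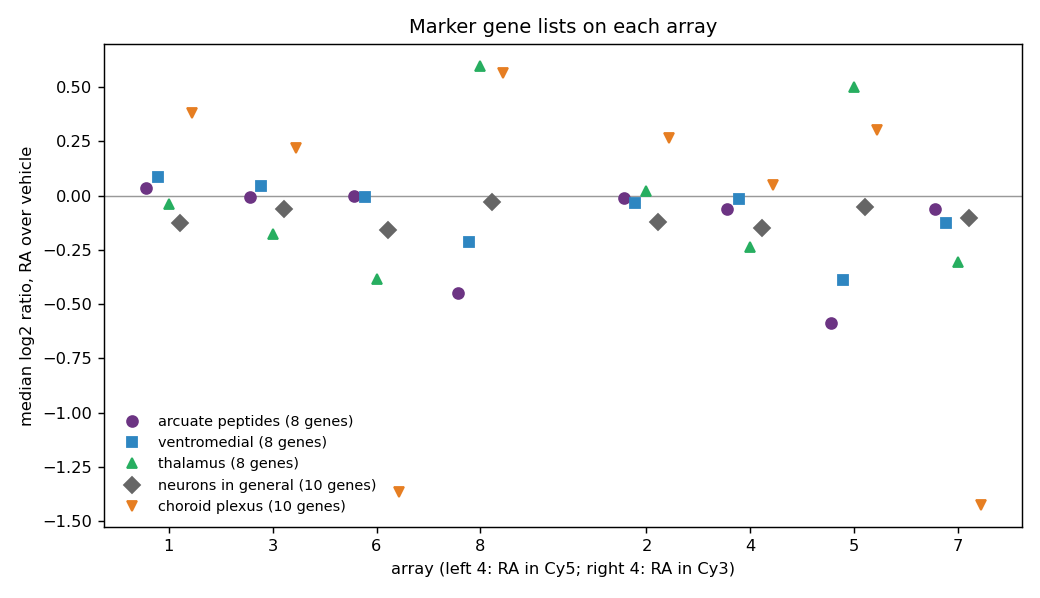
The median log2 ratio of RA over vehicle of 5 marker gene lists on each array. On arrays 8 and 5 the arcuate peptide and ventromedial lists are below 0 and the thalamic list is at 0.60 and 0.50. The choroid plexus list is low on arrays 6 and 7 at -1.37 and -1.42.

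Further genes chosen after their values were seen moved with the arrays in the same way. *Pomc* was at -1.08 on array 8 and at -1.11 on array 5 in log2 ratio, *Pdyn* (dynorphin) -0.86 and -0.94, and the ventromedial regulator *Fezf1* -1.22 and -1.02. The pituitary hormone subunit gene *Cga* had -1.80 and -1.67, with its RA channel at -0.92 and -0.76 and its vehicle channel at 0.93 and 1.08, so that both channels moved. On arrays 6 and 7, where the choroid plexus list was low, *Vip* was at -0.32 and -0.81 and *Cck* at -0.36 and -0.53. The cortical and striatal markers *Slc17a7*, *Drd1* and *Tbr1* were not well above background in RA on any array. The part of dissection, of other cell types and of inflammation in the values of arrays 8 and 5 was not tested.

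The genes whose log2 ratios were most like those of *Hcrt* over the 8 arrays were *Id1*, *Agrp*, *Islr*, *Tmsb15b2* and *Tmem205*, with Pearson correlations of 0.99, 0.99, 0.98, 0.98 and 0.97. For *Pmch* they were *Tnnt2*, *Adcyap1*, *Galp*, *Emx2* and *Slc16a11*, with correlations of 0.99, 0.98, 0.98, 0.98 and 0.97. These values rest largely on arrays 8 and 5, and pairs of arrays may share rats. Among the genes most opposite to *Hcrt* and *Pmch*, named after their values were seen, were the interferon-induced *Gbp2* and the antigen-presentation gene *Cd74*. *Gbp2* was at 2.76 on array 8 and at 2.73 on array 5 in log2 ratio, against 0.26 to 1.11 on the others, and *Cd74* 2.42 and 2.39 against -0.09 to 1.28. On array 8 these genes deviated in the RA channel, by 2.16 for *Gbp2* and 1.65 for *Cd74*, and by 0.25 and -0.16 in the vehicle channel. On the noisier array 5 the RA channel deviated by 1.14 and 1.93 and the vehicle channel by -0.84 and 0.17. On array 8 the difference thus lay in the RA channel for these immune genes and in the vehicle channel for *Hcrt* and *Vip*. Other markers of nuclei were mixed. *Agrp* deviated by -0.54 in RA and 0.52 in vehicle on array 8, and by -0.13 and 0.92 on array 5. *Npy* deviated by -0.09 in RA and 0.44 in vehicle on array 8, and by -0.48 and 0.04 on array 5.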

How the data were processed

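RNA from hypothalamic blocks of RA- and vehicle-injected rats was hybridised to 8 two-colour arrays. For each array the authors deposited scanner output (Feature Extraction 10.7.3.1), with median Cy3 and Cy5 intensity values per spot and Agilent's log10 ratio. A table of log2 ratios was deposited as well, normalised by the authors with limma (loess, identical probes averaged). Its columns correlated at 0.985 to 1.00 with loess ratios computed here without background correction and turned to RA over vehicle, with slopes near 1.00 and medians between -0.0029 and 0.013.

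The analysis ran in R 4.3.3 (limma 3.58.1). Median intensities were corrected by normexp (offset 50), control spots were dropped, spots marked as outliers (0.913% to 2.42%) were left out, loess was applied within arrays, and spots of a probe were averaged. Names came from RefSeq accessions (GRCr8) for 59.3% of probes, and the brightest probe stood for a gene. A probe was well above background on an array when a share of 0.5 or more of its spots carried the mark. Arrays of opposite dye order were averaged into 4 pairs, which were tested with an intercept in limma. All 24 pairings were fitted, each probe took its largest p and the standard error that goes with it, and Benjamini-Hochberg adjustment covered all probes. Single-channel levels came from loess and Aquantile scaling. There were 20 probes with missing values and none of them belongs to the 10 genes. Precision is limited by the number of arrays.

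The text names the 10 genes, *Agrp*, *Npy*, up to 3 genes per marker list by log2 fold change (p under 0.01, else up to 2 bright ones) and the genes most like *Hcrt* and *Pmch*. Others were chosen after their values were seen. The members and lists were chosen with earlier results of these data known. Background correction, normalisation, outlier spots, pairing, dye order, slide row and pairs of arrays left out were varied. The exact sign-flip permutation test of 4 pair means cannot give a p below 0.125 and was not used.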

Additional observations from a re-analysis of the deposited data

Results flagged for a closer look

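The log2 ratio of *Tac1* was -0.78 on array 5, far from the other arrays with RA in Cy3, which lay between -0.14 and -0.04. Of 22 groups of 4 arrays examined for such a gap, 1 had it, where chance gives about 1 in 20 (1.1 of 22). The other *Tac1* probe had -0.33 on that array.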

How the results depend on the processing

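No neuropeptide gene reached an unadjusted p under 0.01 in limma under any background correction, normalisation, scaling, outlier or brightness setting, nor with any pair of arrays left out. The count was 1 of 10 in the pairing with the most calls, which puts arrays 8 and 5 in different pairs. That pairing called 1890 of all 15159 named genes. The count was also 1 on the second slide row alone, beside 987 of all named genes. In each case the gene was *Adcyap1*. The count was 2 on the first row alone (*Hcrt* and *Pmch*), beside 446 of all named genes. Each row gives 2 pair means that may be repeat hybridisations. Log2 fold changes were small enough for some to change sign. On the first row *Hcrt* was at 0.24, *Pmch* 0.52, *Tac1* 0.069, *Penk* 0.15 and *Adcyap1* 0.013. On the second row *Gal* was at -0.017 and *Nts* at -0.037. With RA in Cy5 alone *Gal* was at -0.049 and *Tac1* at 0.11, and with RA in Cy3 alone *Penk* was at 0.024. When 1 array of each dye order was left out, the log2 fold change ranged from -0.27 to 0.16 for *Hcrt*, from -0.36 to 0.28 for *Pmch*, from -0.0033 to 0.29 for *Gal*, from -0.14 to 0.43 for *Vip*, from -0.16 to 0.087 for *Tac1*, from -0.14 to 0.11 for *Penk*, from -0.070 to 0.21 for *Nts* and from -0.11 to 0.43 for *Cck*. The highest values for *Hcrt* and *Pmch* and the lowest for *Vip* and *Cck* came without arrays 8 and 5, and their cause was not tested. *Grp* kept its sign in all 34 alternatives, but with RA in Cy3 alone it was at -5.8e-04, against -0.21 with RA in Cy5 alone. The mean log2 ratios of the 10 genes on arrays 8 and 5 kept their sign in 7 alternatives, 6 of which were chosen after the data were seen, and that of *Hcrt* ranged from -1.10 to -0.998. The number of probes called ranged from 237 (plain subtraction) to 3141 (the pairing with the most calls). No paired analysis by replicate number was possible because the labels give the dye orders no shared numbers.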

Other observations

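Of the lists of cells outside the hypothalamic nuclei, no gene passed an unadjusted p of 0.01 in limma among 8 thalamic genes (*Prkcd* at a log2 fold change of 0.30, *Tnnt1* at -0.26), 11 cortical and striatal genes (*Drd2* at -0.22, *Ppp1r1b* at -0.14) or 7 endothelial genes (*Cldn5* at -0.14, *Kdr* at -0.10). Of all 15159 named genes, 4.31% passed this threshold, 534 higher and 120 lower, and 0 had an adjusted p under 0.05. Among 10 general neuronal genes 2 neurofilament genes fell, *Nefm* by 0.39 and *Nefl* by 0.30 on the log2 scale (limma, adjusted p = 0.283 and 0.306). Among 11 astrocyte genes *Slc4a4* fell by 0.28 and *Gja1* by 0.22, and among 10 oligodendrocyte genes *Ermn* fell by 0.30 and *Opalin* by 0.27. Complement genes *C1qc* and *C1qb*, made by microglia, rose by 1.04 and 1.03, while the microglial *Tmem119* fell by 0.52. *Vim*, an intermediate filament gene of tanycytes, rose by 0.62 with log2 ratios from 0.16 (array 5) to 1.33 (array 7). *Rarres2*, the chemerin gene, rose by 0.40. No gene passed among 10 choroid plexus genes (*Sostdc1* at -0.40, *Kcnj13* at -0.35) or 8 pituitary genes (*Tshb* at -0.39).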
